A study of Rattus norvegicus with 11 samples.

Results

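Creatine kinases, adenylate kinase and myoglobin serve the heart's high-energy phosphate and oxygen stores, and they were taken here as every probe set whose platform annotation gives 1 of 5 gene symbols: Ckm, Ckb, Ckmt2, Ak1 or Mb. The rule found 5 of the 8799 probe sets on the array, 1 for Ckm, 2 for Ckb and 2 for Ckmt2, which makes 3 of the 4736 genes named by a single symbol. Ak1, the cytosolic adenylate kinase, and Mb, the myoglobin gene, had 0 probe sets under these symbols and were not analysed here. Each probe set is a manufacturer's set of short probes read out as a single value. The samples were heart ventricle of the inbred Fischer-344 rat, with 6 arrays from rats aged 22 months (old) and 5 from rats aged 4 months (young), and the labels name no treatment or genetic change in either group. The labels do not tie arrays to animals, so p-values reflect only the variation among these arrays, part or all of which may be technical.

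Creatine kinase moves a phosphate group between ATP and creatine, and phosphocreatine serves muscle as a quick reserve for rebuilding ATP. The cytosolic muscle form, encoded by Ckm, lies partly at the contractile filaments and beside calcium pumps, where ATP is used. Ckb encodes the cytosolic brain-type form, which the fetal heart, smooth muscle and nerve also use. Ckmt2 encodes the sarcomeric mitochondrial form, which sits between the mitochondrial membranes and charges creatine with newly made ATP. Adult heart muscle uses the cytosolic muscle form and the mitochondrial form together as an energy shuttle. The question here was whether the cytosolic and mitochondrial forms differed with age, and whether they did so alike.

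The 3 isoforms measured under the 5 symbols come from separate genes on separate chromosomes. Ckmt1, the ubiquitous mitochondrial form, was not among these symbols. It is left out of what are called the 5 creatine kinase probe sets and of the ratios, and is given with the listed genes below. Their upstream regions are printed because each isoform's transcript starts from its own promoter. Each run is the 250 bases before the start site, 5′ to 3′ along the gene's strand, from RefSeq on the rat build GRCr8, at chr1:88189211-88189460 (+) for Ckm, chr6:136553465-136553714 (-) for Ckb and chr2:24845512-24845761 (-) for Ckmt2. Capitals mark each match to CANNTG, the E-box that muscle transcription factors and many others bind, which reads the same on both strands.
Ckm: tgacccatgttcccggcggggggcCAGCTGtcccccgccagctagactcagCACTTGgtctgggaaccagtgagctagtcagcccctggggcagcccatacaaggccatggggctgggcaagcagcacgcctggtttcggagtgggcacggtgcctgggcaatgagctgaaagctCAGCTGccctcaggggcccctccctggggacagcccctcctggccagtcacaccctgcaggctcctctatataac
Ckb: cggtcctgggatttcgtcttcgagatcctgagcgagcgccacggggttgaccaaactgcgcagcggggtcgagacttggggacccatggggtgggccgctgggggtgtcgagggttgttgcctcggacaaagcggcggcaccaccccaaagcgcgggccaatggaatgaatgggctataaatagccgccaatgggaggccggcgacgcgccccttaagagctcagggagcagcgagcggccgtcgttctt
Ckmt2: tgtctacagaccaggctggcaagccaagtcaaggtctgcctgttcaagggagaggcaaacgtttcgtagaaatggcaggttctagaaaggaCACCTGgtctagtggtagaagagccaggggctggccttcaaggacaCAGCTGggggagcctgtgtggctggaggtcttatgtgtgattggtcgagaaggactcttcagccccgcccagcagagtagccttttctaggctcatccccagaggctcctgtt

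The 3 E-box matches of Ckm began 226, 199 and 75 bases before the start and the 2 of Ckmt2 began 159 and 113 before it, so Ckm had 3 matches, Ckmt2 had 2 and Ckb had 0. Of 33465 rat upstream regions of the same length, 65.5% held at least 1 such match, 30.8% at least 2 and 11.5% at least 3. Searched on both strands, TATAAA was found once in Ckb, 75 bases before the start, and in 12.9% of all regions, and that match lay inside the only match to the MEF2 pattern, which 2.96% of regions hold. CCAAT was found 2 times in Ckb and 1 time in Ckmt2, and in 34% of all regions. GGGCGG was found 1 time in Ckmt2 and in 30.5% of all regions. An exact match to the CArG box, CCWWWWWWGG with W for A or T, was found in 0 of the 3 genes and in 1.5% of all regions. Inexact sites were not counted, such as CCATACAAGG in Ckm, which is 1 base off that pattern. No E-box match overlapped another motif, and none of these matches is evidence of binding.

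The deposited values are 1 linear intensity per probe set and array, already on a common scale when deposited: with the extreme 2% of values removed at either end, array means ran from 500.5 to 501.0. Scaling to a common level makes every difference relative to the other transcripts on the array. The 5 creatine kinase probe sets were all among the 5244 tested, which are those left after control and dim probe sets were set aside. Arrays differed in other ways. The bacterial control transcripts averaged 9.55 to 15.24 on the log2 scale in old and 9.63 to 11.97 in young, and their widest gap set apart 5 bright arrays, namely young replicate 4 and old replicates 3 to 6, from 6 dim ones. The log2 ratio of 3' to 5' signal of GAPDH increases as RNA is degraded. It was 3.39 in old replicate 3, 4.09 in old replicate 4 and 0.77 or less elsewhere. In old replicates 3 and 4 the same ratio of actin was 1.98 and 1.82. That of hexokinase was -0.93 and -4.16 there, its lowest values, so the control ratios did not all point the same way. All 8 heart muscle markers had a probe set, and their summed intensity ranged from 303675 to 480488 in old and from 290670 to 443570 in young.

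Ckm was the creatine kinase whose old and young arrays were fully apart. Its intensity (M10140_at) was lowest at 8519 in old replicate 3, with a median of 18662 and a highest value of 21510 over the 6 old arrays. The 5 young arrays read 29941, 26397, 27691, 23002 and 27081. Every old array lay below every young one, and the gap between the highest old and the lowest young array was 0.097 on the log2 scale. On that scale Ckm averaged 14.03 ± 0.50 in old (SD, n = 6) and 14.71 ± 0.14 in young (SD, n = 5). Old minus young was -0.67 ± 0.30 (SE), with a 95% interval of -1.30 to -0.052. The old level was thus 0.627 of the young one, with an interval of 0.407 to 0.964. The difference did not pass once limma's p-values were adjusted over the whole table by the Benjamini-Hochberg method (limma adjusted p = 0.614). Ventricle holds several cell types, and fewer cells of a type cannot be told apart from less RNA per cell.

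**Figure D1:**
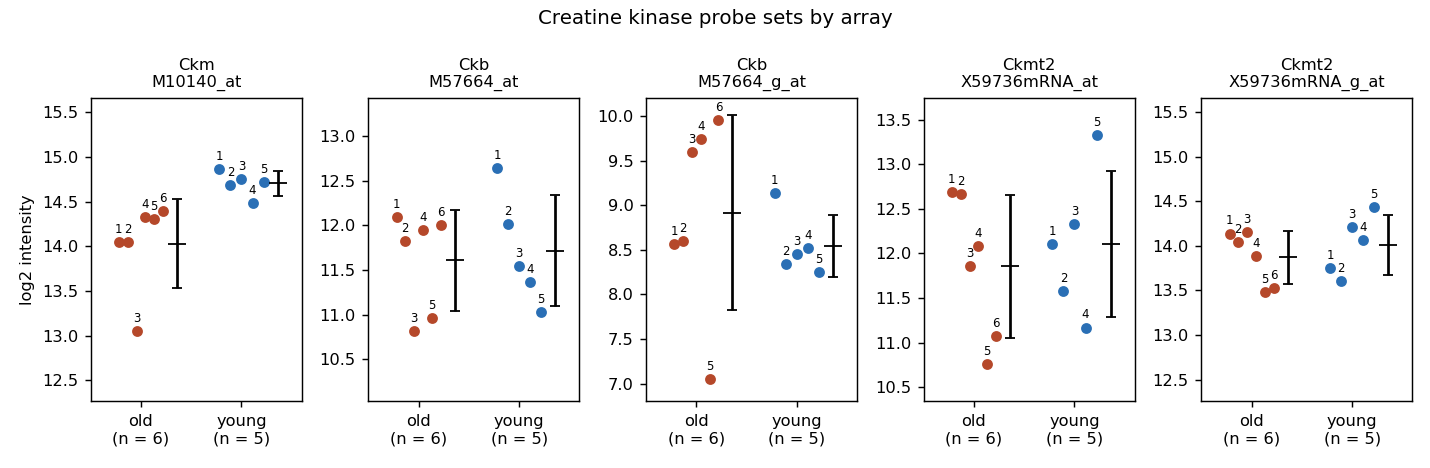
Log2 intensity of the 5 creatine kinase probe sets, each in its own panel, with old arrays left of young ones and the replicate number above each point. Bars give the mean and SD, and each vertical axis spans the same number of log2 units. The 6 old arrays lie below the 5 young ones for Ckm, and the groups overlap in the other 4 panels.

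Of the 5 creatine kinase probe sets, 0 passed an adjusted p of 0.05 in limma, as did 0% of all tested probe sets in either direction. At an unadjusted limma p under 0.05, 1 of 5 was lower in old (Ckm), where 4.12% of all tested probe sets were, and 0 of 5 were higher, where 3.39% were. The arrays did not overlap, with old lower, for 1 of 5 (Ckm), against 0.42% of all tested probe sets, and did not overlap with old higher for 0 of 5, against 0.553%. The single probe set in each of these counts is the same one, so they are not separate pieces of evidence.

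Old replicate 3 carried much of the spread in Ckm. It read 13.06, while the other old arrays lay between 14.05 and 14.39, a range of 0.35 that is close to the range of 0.38 among young arrays. Without it the difference was -0.48 ± 0.28 (SE, limma adjusted p = 0.804), and its unadjusted p was no longer under 0.05. Old replicate 3 is also an array of high GAPDH ratio, and without both such arrays the difference was -0.50 (limma adjusted p = 0.89). In the same array Lyz2, the macrophage lysozyme, read 35868, against 739 to 3295 in the other old arrays and 849 to 1455 in young ones. The macrophage list had a probe set for 2 of 4 genes, Lyz2 and Cd14, with 0 values at 0, and its defining markers Cd68 and Cd163 had none. The 2 measured genes went opposite ways, with old minus young at 1.49 ± 0.65 (SE) for Lyz2 and -0.31 ± 0.45 for Cd14. The list's summed intensity ranged from 1625 to 36122 in old and from 1293 to 2403 in young. In old replicate 3, Lyz2 made up 35868 of the 36122, so the sum there is close to a reading of Lyz2 alone. Over the 11 arrays the log2 sum of the list had r = -0.92 with Ckm, and r = -0.68 over the 10 arrays without old replicate 3. Of all the cell type lists looked at, this one had the r with Ckm furthest from 0. The next was nerve and glia at r = -0.46. These r values pool old and young arrays, so they also carry the difference between the groups. The part of macrophage RNA in the Ckm difference was not tested.

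Scaling also touched the separation of Ckm. With quantile normalization the mean difference stayed at -0.67, but old replicate 6 moved to 14.80, above the lowest young array at 14.51, so that the groups overlapped in 1 array. With each array centred on its median the difference was -0.79 and the groups did not overlap. Within the dim arrays, 2 old and 4 young, the Ckm difference was -0.71, and within the bright arrays, 4 old and 1 young, it was -0.47. With this class as a block it was -0.62 ± 0.32 (SE, limma adjusted p = 0.938).

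Ckb, the other cytosolic form, showed no shared direction between its 2 probe sets. The brighter one (M57664_at) had a lowest intensity of 1802, a median of 3784 and a highest of 4360 in old. Young arrays read 6371, 4127, 2983, 2642 and 2087, so the groups overlapped and the young values spread more widely. It averaged 11.61 ± 0.57 in old (SD, n = 6) and 11.72 ± 0.62 in young (SD, n = 5), on the log2 scale. The difference of -0.11 ± 0.35 (SE) was smaller than its error, with a 95% interval of -0.84 to 0.61 (limma adjusted p = 0.955). Its sign was not stable: it was 0.065 with quantile normalization, 0.12 with the bright and dim class as a block, 0.046 without old replicate 3, 0.018 without old replicate 5 and 0.12 without young replicate 1.

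The dimmer Ckb probe set (M57664_g_at) had a lowest intensity of 132.5, a median of 579.6 and a highest of 991.8 in old. Young arrays read 560.9, 325.3, 351, 367.8 and 304.4. Old replicates 3, 4 and 6 lay above every young array and old replicate 5 below every one. It averaged 8.92 ± 1.09 in old (SD, n = 6) and 8.54 ± 0.35 in young (SD, n = 5), and the difference was 0.38 ± 0.51 (SE, limma adjusted p = 0.88). With the pair of high GAPDH ratio, old replicates 3 and 4, left out it was 9.44e-04, and without old replicate 5 it was 0.75. Over the 11 arrays the Ckb probe sets correlated with each other at r = 0.37, so they did not track each other closely although both carry the same transcript accession.

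Smooth muscle, which uses brain-type creatine kinase, was looked at through its markers. The smooth muscle list had 4 of 4 genes measured, with 4 of 4 higher in old and 0 past the threshold, and its summed intensity ranged from 807.5 to 16936 in old and from 679.1 to 2927 in young. The list had 0 values at 0. Its log2 sum correlated with the brighter Ckb probe set at r = -0.033 over 11 arrays, and its part in the Ckb values was not tested.

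Ckmt2, the mitochondrial form, overlapped between the ages for both of its probe sets. The brighter one (X59736mRNA_g_at) had a lowest intensity of 11418, a median of 15968 and a highest of 18261 in old. Young arrays read 13765, 12496, 18945, 17203 and 22146, so young replicates 1, 2 and 4 lay within the old range and young replicates 3 and 5 above it. It averaged 13.87 ± 0.30 in old (SD, n = 6) and 14.01 ± 0.34 in young (SD, n = 5), on the log2 scale. The difference was -0.14 ± 0.28 (SE), with a 95% interval of -0.73 to 0.44 (limma adjusted p = 0.92). It was -0.0098 with quantile normalization, and with 1 array left out it ran from -0.24 without young replicate 2 to -0.038 without young replicate 5. The interval holds the Ckm difference of -0.67, but that is no test of whether Ckm and Ckmt2 differed. Their direct comparison is the ratio within each array, given below, which did not pass (exact permutation p = 0.182). The values thus do not show that Ckmt2 behaved unlike Ckm.

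The dimmer Ckmt2 probe set (X59736mRNA_at) had a lowest intensity of 1730, a median of 4020 and a highest of 6597 in old. Young arrays read 4391, 3067, 5164, 2303 and 10272, and young replicate 5 stood above all other arrays. It averaged 11.85 ± 0.80 in old (SD, n = 6) and 12.10 ± 0.82 in young (SD, n = 5). The difference was -0.25 ± 0.41 (SE, limma adjusted p = 0.902), and it was 0.058 without young replicate 5 and 0.32 with the bright and dim class as a block. The Ckmt2 probe sets followed each other over the 11 arrays (r = 0.78). Both were higher in arrays with a high 98th percentile of intensity, with r = 0.67 for the brighter and r = 0.75 for the dimmer one, and r = 0.11 for Ckm. Ckm had r = -0.53 with the GAPDH ratio and r = -0.63 with the same ratio of actin over the 11 arrays. The part of these array properties in the creatine kinase values was not tested.

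Cytosolic and mitochondrial forms were compared by the log2 ratio of the brighter probe sets within each array. A ratio's own level depends on the probes, so only its difference between groups is read. The Ckm over Ckmt2 ratio was lowest at -1.10 in old replicate 3, with a median of 0.23 and a highest value of 0.86 in old. Young arrays had 1.12, 1.08, 0.55, 0.42 and 0.29, and the groups overlapped, with 4 of 6 old arrays below the young mean. The ratio averaged 0.16 ± 0.73 in old (SD, n = 6) and 0.69 ± 0.38 in young (SD, n = 5). The difference of -0.53 ± 0.37 (SE) did not pass an exact two-sided permutation test over all 462 splits of the arrays (exact permutation p = 0.182, adjusted p = 0.273 over 3 ratios). Without old replicate 3 it was -0.28 (exact permutation p = 0.325).

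The Ckm over Ckb ratio, between the cytosolic forms, was lowest at 1.96, with a median of 2.31 and a highest value of 3.35 in old. Young arrays had 2.23, 2.68, 3.21, 3.12 and 3.70, and 5 of 6 old arrays lay below the young mean. It averaged 2.43 ± 0.48 in old (SD, n = 6) and 2.99 ± 0.56 in young (SD, n = 5), a difference of -0.56 ± 0.31 (SE, exact permutation p = 0.0909, adjusted p = 0.273). With the dimmer Ckb probe set in its place the difference was -1.05 (exact permutation p = 0.108), an alternative chosen after the data were seen. The Ckb over Ckmt2 ratio averaged -2.27 ± 0.62 in old (SD, n = 6) and -2.30 ± 0.93 in young (SD, n = 5). At 0.032 ± 0.47 (SE), its difference was far smaller than its error (exact permutation p = 0.948, also 0.948 when adjusted). The design allows an exact permutation p as small as 0.00216, and none of the 3 ratios passed.

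**Figure D2:**
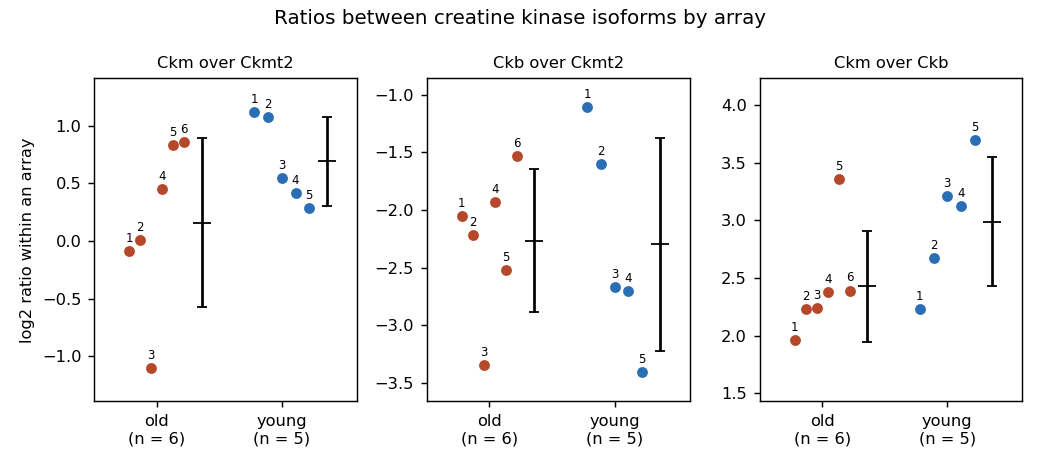
Log2 ratio of the brighter probe sets of 2 isoforms within each array, with old arrays left of young ones, replicate numbers above the points, and bars for the mean and SD. Old and young arrays overlap in all 3 panels, and old replicate 3 has the lowest Ckm over Ckmt2 ratio at -1.10.

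With group means removed, Ckm correlated with the brighter Ckb probe set at r = 0.51 and with the brighter Ckmt2 probe set at r = -0.48. The brighter Ckb and Ckmt2 probe sets correlated at r = -0.38. These are descriptions over 11 arrays that share the same scaling. The groups also differed in spread: the SD of Ckm was 0.50 in old and 0.14 in young, and 0.16 in old without replicate 3, while for the brighter Ckmt2 probe set it was 0.30 in old and 0.34 in young.

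Other genes of phosphate transfer, ATP export, AMP sensing and oxygen supply were taken from a list of 66 genes in 6 roles, of which 32 had a probe set and 25 were tested. Of these 25, 0 passed the adjusted threshold in either direction, 19 were lower and 6 higher in old, and the median difference was -0.31. Over all 3206 tested genes 1613 were lower, with a median of -0.0053. At an unadjusted limma p under 0.05 there was 1 of 25 lower (Prkab1), against 4.12% of all tested probe sets, and 0 higher, against 3.39%.

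The role of creatine synthesis and uptake, under which Ckmt1 was also listed, had 3 tested genes. Slc6a8 (X66494_at), the transporter that brings creatine into the cell, averaged 10.25 ± 0.28 in old (SD, n = 6) and 10.51 ± 0.21 in young (SD, n = 5), a difference of -0.26 ± 0.29 (SE). It was -0.16 without old replicate 5. Gamt (X08056cds_s_at), which makes the last step of creatine synthesis, differed by 0.42 ± 0.45 (SE), and its other probe set by -0.0073 ± 0.66. The Gamt difference was 0.039 without young replicate 3, 0.28 without old replicate 4 and 0.64 without young replicate 4. Ckmt1 (X59737mRNA_at), the ubiquitous mitochondrial creatine kinase, averaged 7.65 ± 1.49 in old (SD, n = 6) and 8.51 ± 0.87 in young (SD, n = 5), a difference of -0.86 ± 0.67 (SE). The largest intensity of Ckmt1 was 1142.5, in old replicate 6, against 287.8 or less in the other old arrays. The Ckmt1 difference was -1.36 without old replicate 6, -0.47 without old replicate 1 and -0.22 with the mean of its probe sets. None of the 3 genes passed.

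Adenylate and other nucleotide kinases, which even out the phosphates among ATP, ADP and AMP, had 6 tested genes, with 1 higher and 5 lower in old. Ak3 (rc_AI176052_at), of the mitochondrial matrix, differed by 0.58 ± 0.48 (SE), with young replicate 4 at 146.3 in intensity and all other arrays at 525.2 or more. Without young replicate 4 the Ak3 difference was 0.10, and without young replicate 5 it was 0.88. With the bright and dim class as a block it was 1.08 (limma adjusted p = 0.938), and within the bright arrays, where young replicate 4 is the single young array, it was 2.45. Nme6 (AF051943_at), a nucleoside diphosphate kinase, differed by -0.92 ± 0.63 (SE), and its other probe set by 0.26 ± 0.60. Without old replicate 4 the Nme6 difference was -0.52. Ratios with Ak1 could not be formed, since Ak1 had 0 probe sets under its symbol.

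Mitochondrial ATP export had 4 tested genes, all lower in old and none past the threshold. Slc25a4 (D12770_s_at), the heart and muscle carrier that exchanges ATP for ADP, averaged 14.91 ± 0.64 in old (SD, n = 6) and 15.22 ± 0.45 in young (SD, n = 5), a difference of -0.31 ± 0.35 (SE). Slc25a5 (D12771_s_at), a related carrier, differed by -0.39 ± 0.41. Vdac1 (AF048828_g_at), the main pore of the outer membrane, differed by -0.54 ± 0.40, and its other probe set (AF048828_at) by -1.81 ± 0.65 (SE, limma adjusted p = 0.56). Within the dim arrays Slc25a4 was at 0.12, and within the bright arrays Vdac1 was at 0.25 and Slc25a5 at 0.32, the opposite direction. Vdac1 was at -0.34 without young replicate 1 and at -0.22 without young replicate 5. Slc25a4 was at -0.086 without old replicate 6, and with 1 array left out Slc25a5 ran from -0.63 without young replicate 4 to -0.19 without old replicate 5.

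Prkab1 (X95577_at) encodes the beta 1 regulatory subunit of the AMP-activated kinase that senses a low energy charge. By each gene's brightest probe set, it was the single gene of the 25 whose old and young arrays did not overlap. Of all tested probe sets 0.42% were apart with old lower and 0.553% with old higher. The log2 intensity of Prkab1 was lowest at 6.15 and highest at 9.49 over the old arrays. Young arrays had 9.62, 9.57, 9.99, 9.64 and 9.58. It averaged 8.22 ± 1.14 in old (SD, n = 6) and 9.68 ± 0.18 in young (SD, n = 5), a difference of -1.46 ± 0.50 (SE, limma adjusted p = 0.56). Adk (U57042_s_at), which phosphorylates adenosine to AMP, differed by -0.46 ± 0.44, and by -0.18 without old replicate 3, -0.26 without old replicate 5 and -0.27 without young replicate 3.

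Oxygen supply and muscle transcription factors gave wide errors. Vegfa (rc_AA850734_at), the vascular growth factor, differed by -1.39 ± 0.70 (SE), and its other 3 probe sets by -1.87 ± 0.72, -1.13 ± 0.65 and 0.062 ± 0.54. Arnt (U61184_at), the partner of the hypoxia factors, differed by -0.75 ± 0.51, and its other probe set by 0.85 ± 0.53. Ppara (M88592_at), a receptor that drives fatty acid genes, differed by -1.15 ± 0.60, and Mef2d (AJ005425_at), a muscle transcription factor, by -1.03 ± 0.58. Old replicate 4 read 11.3 for Vegfa and 13.4 for Ppara, under the floor of 47.4 to which low values were raised. With the floor at the 10th and 30th percentile the difference was -1.55 and -1.27 for Vegfa and -1.31 and -1.02 for Ppara. Without old replicate 4 the difference was -0.74 for Vegfa, -0.83 for Ppara, -0.45 for Arnt and -0.57 for Mef2d. Without young replicate 2 it was -0.47 for Arnt, -0.86 for Ppara and -0.72 for Mef2d. Ppargc1a had no probe set under its symbol. Oxygen sensing had 4 genes tested, with 3 lower and 1 higher in old, and the transcription factors 5, with 3 lower and 2 higher, and 0 passed in either role.

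**Figure D3:**
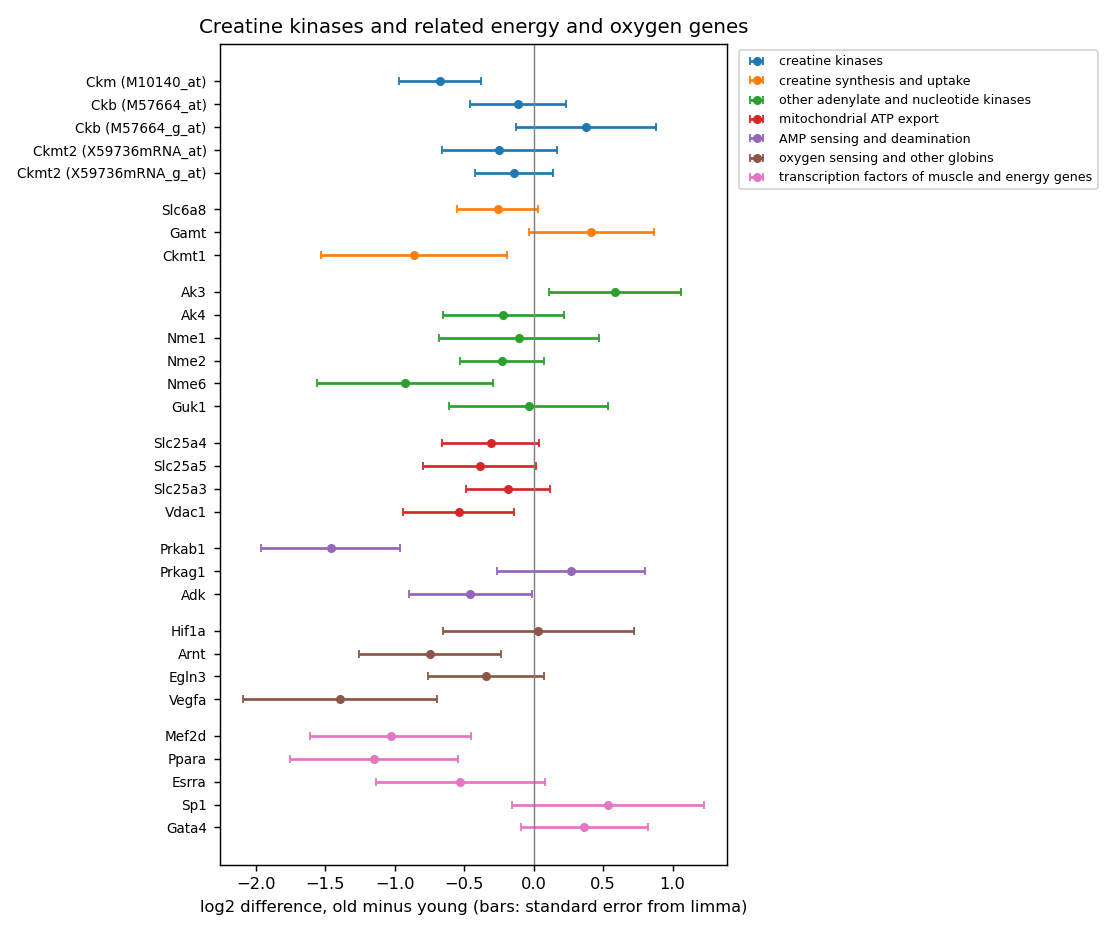
Log2 difference, old minus young, of the 5 creatine kinase probe sets and the 25 tested genes of the 6 related roles, coloured by role, with bars for the standard error from limma. Of the 25 genes 19 lie left of 0, and no gene or probe set shown passed the adjusted threshold.

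The genes whose pattern over the 11 arrays was most like that of each isoform were taken from 3203 other tested genes by Pearson's r of log2 intensity. For Ckm they were Fkbp4, a co-chaperone of steroid receptors (r = 0.97), Hspb2, a small heat shock protein of muscle (r = 0.89), and Dtd2, a tRNA-editing deacylase (r = 0.86). Old replicate 3 was low for all of them: Fkbp4 read 60.2 there, against 392.3 to 862 in the other old arrays and 829.7 to 1754 in young ones. Without that array r was 0.90 for Fkbp4, 0.57 for Hspb2 and 0.45 for Dtd2, so the last pair rested largely on it. For Ckb they were Psmc3, a proteasome subunit (r = 0.85), Pgap2, which acts in the lipid anchoring of proteins (r = 0.83), and C8h11orf54 (r = 0.81). For Ckmt2 they were Hnrnpf, an RNA-binding protein (r = 0.89), Psma1, a proteasome subunit (r = 0.89), and Hspa9, the mitochondrial heat shock protein of the Hsp70 family (r = 0.84). With quantile normalization r was lower for all 9 genes, at 0.93, 0.82 and 0.77 for the Ckm genes, 0.70, 0.58 and 0.71 for the Ckb genes and 0.63, 0.61 and 0.68 for the Ckmt2 genes, each in the order named above.

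The direction of the creatine kinase differences was followed through 25 or 26 other ways of processing the values. The Ckm difference lay between -0.79 and -0.47. Because its groups do not overlap as deposited, leaving out arrays could not turn its direction, and settings of floor, filter or variance trend do not move its value, so the direction is no sign of stability. Ckb changed sign in 8 of 26, the brighter Ckmt2 probe set in 1 of 26 and the dimmer one in 4 of 25. The dimmer Ckb probe set was higher in old in 25 of 25, between 9.44e-04 and 0.75. Other floors and filters and leaving out the variance trend did not move its value, and with array weights it was 0.032. Its count is thus no sign of stability either. In 0 of the 24 settings tested over all probe sets did a creatine kinase probe set pass the adjusted threshold.

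**Figure D4:**
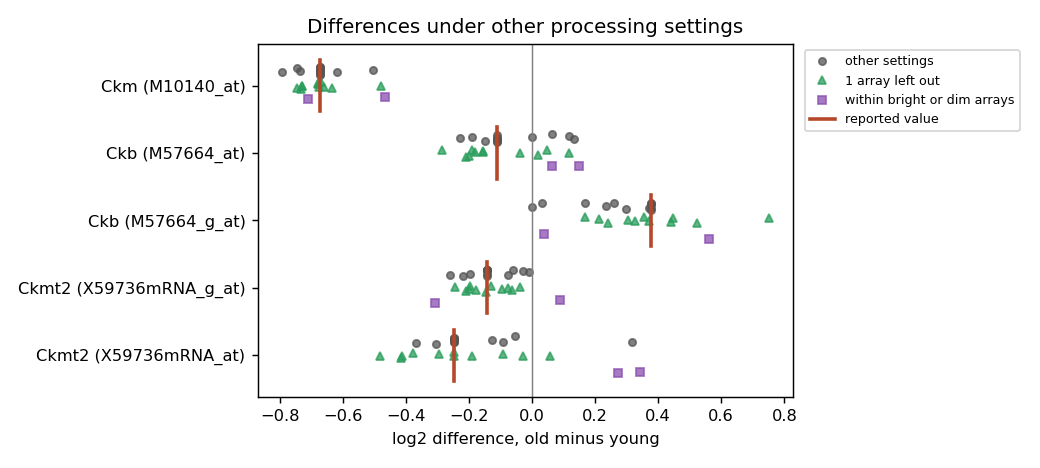
Log2 difference, old minus young, of each creatine kinase probe set as reported (vertical line) and under other settings: circles for other floors, filters, scalings and models, triangles for 1 array left out, squares for values within the bright or the dim arrays. Points for Ckm lie between -0.79 and -0.47, while those for Ckb (M57664_at) and both Ckmt2 probe sets lie on both sides of 0.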

How the data were processed

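The authors deposited 1 table of linear intensity values for 8799 probe sets on 11 arrays. The software, the background correction and the detection calls were not given in the sources used here. No rescaling was done as the main setting. Values below the table's 20th percentile (47.4) were set to it before log2, which understates differences of dim genes. The 59 control probe sets and those with a mean log2 value under the 40th percentile were left out, which left 5244. The comparison, old minus young, used limma 3.58.1 in R 4.3.3 (lmFit, eBayes with a mean-variance trend, Benjamini-Hochberg adjustment over the 5244, threshold 0.05), and standard errors and 95% intervals come from that fit. Precision is limited by the number of arrays; the standard error had a median of 0.56. Arrays were grouped by their titles. A gene measured by several tested probe sets was represented by its brightest one on average. Ratios were tested by exact two-sided permutation. The code was tested on simulated data.

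In GEO's platform annotation 7006 probe sets carry 1 symbol, 308 carry several and 1426 of the non-control ones carry none; no gene was named from several. Of the single symbols, 6985 were matched by gene number to the RefSeq table of GRCr8, and 0 changed. No coordinates of the probe sets are printed, because no build belongs to the table.

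The members and lists were chosen with earlier results of these data known. Named genes were the members' probe sets; in each role of the list the 2 tested genes with the smallest p and any past the threshold; Slc6a8, Slc25a4, Vdac1, Ak3 and Ppargc1a where measured; and the 3 genes most correlated with each member. Marker genes and other probe sets named beside a result were chosen after their values were seen. Some listed genes are not reported here. Alternatives were another floor, filter or scaling (quantile, median), no trend, array weights, blocks for replicate number and for the brightness of bacterial controls, each brightness class alone, leaving out arrays, the mean or the other probe set of a gene, and a threshold of 0.1.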

Additional observations from a re-analysis of the deposited data

Results flagged for a closer look

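In 4 of 44 groups of arrays examined, the highest or lowest array stood far from the others of its group; chance gives about 1 in 20. For Ckm, old replicate 3 was at 13.06, with the next old array at 14.05. For the Ckm over Ckb ratio, old replicate 5 was at 3.35, with the next at 2.39. Without old replicate 5 that ratio differed by -0.75 (exact permutation p = 0.0317, adjusted p = 0.0952). For Prkab1, young replicate 3 was at 9.99, with the next young array at 9.64. For Vegfa, young replicate 4 was at 8.80, with the next young array at 10.48. The causes were not tested.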

How the results depend on the processing

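Ckm lay between -0.79 and -0.47 in 26 alternatives, most of which could not turn its direction, with an unadjusted limma p under 0.05 in 14 of 24 and a smallest limma adjusted p of 0.193, under array weights. The Ckm over Ckmt2 ratio (-0.80 to -0.16) and the Ckm over Ckb ratio (-1.05 to -0.38) kept their direction in 24 of 24, and neither passed in the 19 alternatives that gave a p. Other floors and median centring left both ratio differences unchanged, so the count of kept directions is no sign of stability. The Ckb difference turned to 0.065 with quantile normalization, 0.12 when the bright and dim class was a block, 0.063 within the bright and 0.15 within the dim arrays, and 0.13 with the mean of its probe sets. It ran from -0.28 to 0.12 with 1 array left out. Ckmt2 turned to 0.087 within the dim arrays and ran from -0.24 to -0.038 with 1 array left out, and its dimmer probe set (X59736mRNA_at) to 0.32 with the class block, 0.27 within the bright and 0.34 within the dim arrays, with -0.48 to 0.058 when 1 array was left out. The Ckb over Ckmt2 ratio turned to -0.12 with array weights and with the replicate block, and ran from -0.25 to 0.33 with 1 array left out. Among listed genes, Slc25a5 turned to 0.055 with the class block and 0.32 within the bright arrays, Adk to 0.12 with the class block and 0.34 within the dim arrays, Gamt to -0.36 and Vdac1 to 0.25 within the bright arrays, Slc25a4 to 0.12 and Vegfa to 0.079 within the dim arrays, and Arnt to 0.053 with the mean of its probe sets. The causes were not tested. Past the threshold were 0 to 2 of all probe sets with 1 array left out (2 without old replicate 5), and 0 in the other settings.

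With the replicate number as a block Ckm was at -0.75 (limma adjusted p = 0.648) and 0 probe sets passed. Replicate 6 exists only in old, so the block gave the same difference as leaving out old replicate 6, and they are not separate alternatives. Same-numbered arrays showed no common deviation, with correlations from -0.25 to 0.25, and 1 of 5 young arrays was closest to the old array of its own number. The labels do not say that a number is shared between samples, and so few correlations cannot exclude it. Quantile normalization moved the median of all tested probe sets to -0.11 and median centring to -0.13, against -0.010 as deposited. The ratios of Ak1 could not be formed under any setting. The brightness classes and left-out arrays leave few samples, and the number of arrays limits what could be detected.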
